A study of Mus musculus with 6 samples.

Results

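Epas1, the gene of hypoxia-inducible factor (HIF) 2 alpha, was described together with the other HIF subunit genes Hif1a, Hif3a, Arnt and Arnt2, the prolyl hydroxylase genes Egln1, Egln2 and Egln3, the asparaginyl hydroxylase gene Hif1an, and Vhl, the substrate receptor of the ligase that marks hydroxylated HIF alpha for degradation. These 10 genes were taken out of 27975 gene names on the array, as every probe whose name in the scanner files was one of theirs. This found 18 probes for 9 of the genes. No spot bore the name Vhl, but 1 probe carried its older name Vhlh, which RefSeq lists as a synonym, and its values are given as an addition to the rule. The genes were chosen with the VIP ratios of these arrays known, above all that of Epas1, so their ratios are given as a description with no p, and the counts of calls among them describe this choice as well.

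The cells were CD4 T cells from spleens of C57BL/6J mice, activated in both groups with PMA, a phorbol ester, and ionomycin, a calcium ionophore. One group also received VIP (vasoactive intestinal peptide), which signals through receptors that raise cAMP, and the other did not. Per the labels, each sample pooled between 5 and 10 spleens of males and females aged 6 to 32 weeks, and beads coated with anti-CD4 selected the cells. The sample titles call the material spleenocytes, whereas the source names call it activated CD4 T cells. How much VIP was added, and for how long, is not stated in the labels. Each of 6 dual-colour arrays, called biological replicates by the labels, compared the RNA of VIP-treated with that of untreated cells, with VIP labelled by Cy5 on 3 of them and by Cy3 on the other 3.

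HIF is a dimer of an alpha subunit and ARNT, both members of the basic helix-loop-helix PAS family, that binds hypoxia response elements in DNA. In oxygenated cells the EGLN enzymes hydroxylate prolines of the alpha subunit, VHL binds the hydroxylated protein and it is degraded, while HIF1AN hydroxylates an asparagine and blocks the recruitment of the coactivators CBP and p300. Control of the alpha subunits is therefore known mainly from the protein, which these arrays did not measure. HIF-1 alpha is known in T cells for its part in glycolysis after activation, and Egln3 is a HIF target in many cell types.

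The 3 Epas1 probes are shown because their ratios differed. The files place them on the plus strand of chromosome 17 of mm9. No exon annotation of that build was used here, so their place in the transcript is not stated. Each line gives the first 30 bases of a probe of 60, in lower case throughout.
Epas1 A_51_P250058 (chr17:87232615-87232674): tcctgtccatgtaacaacttcatgaccatt
Epas1 A_51_P307954 (chr17:87230808-87230867): ccctaggaaagctttggcgtcattcaactc
Epas1 A_52_P293443 (chr17:87198057-87198116): ggtgaaaatggttgagggaagctcaggcta

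Replicate 5 stood apart from the other arrays in sex-linked transcripts and in measures of array quality. Its log2 ratio of VIP over untreated was -3.27 for Xist and 4.12 for Ddx3y, a Y-linked gene, against ranges of -0.34 to 0.46 and -0.10 to 0.39 on the other 5 arrays. The RNAs in its channels thus differed in sex-linked transcripts. Whether they came from one pool of mice, as the pairing within an array takes them to, was not tested. Spots with an outlier mark made up 13.5% of that array and between 0.57% and 4.44% of the others, and its spike-in slope was 0.19 against 0.51 to 0.60 per the file headers. The share of spots well above background ran from 56.9% to 99.9% over arrays and channels. On replicate 6 it was 99.0% with VIP and 99.9% in untreated cells. Being well above background thus separates few spots on that array, which limits every count of such arrays below. Precision is limited by having 6 arrays, and every p-value here speaks of the spread among them. T cell transcripts were present, since all 6 genes of the CD4 T cell list were well above background on all arrays in both channels. These were Cd4, Cd3d, Cd3e, Cd3g, Lck and Thy1. Their presence does not show how pure the CD4 preparation was.

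Epas1 was the HIF gene with the largest ratio among the 10. At its brightest probe, A_51_P250058, the log2 level was 12.63, 12.98 and 13.68 (lowest, median and highest of 6 arrays) with VIP and 11.63, 12.21 and 12.58 in untreated cells. All 6 VIP values lay above all 6 untreated values. The mean log2 ratio of VIP over untreated was 0.85 ± 0.051 (SE, n = 6 arrays), or 1.80-fold, and it stood at position 6 from the top among 22890 genes tested. The ratio was positive on 6 of 6 arrays, with a range of 0.52 to 1.10. Without replicate 5 it was 0.85 ± 0.056 (n = 5). In bulk RNA, more cells with the transcript and more transcript per cell cannot be told apart.

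A second Epas1 probe, A_52_P293443, designed to the cDNA AK087208, gave a ratio in the same direction. Its log2 level was 8.32, 8.66 and 9.30 with VIP and 7.65, 8.01 and 8.49 in untreated cells, so the groups overlapped although VIP was higher within each of 6 arrays. The mean log2 ratio was 0.62 ± 0.071 (SE, n = 6), or 1.54-fold, and 0.60 ± 0.075 without replicate 5. Its array ratios ran from 0.23 in replicate 6 to 0.81 in replicate 4. The third probe, A_51_P307954, exceeded background clearly on 2 of 6 arrays with VIP and 2 of 6 in untreated cells and did not pass the filter, which asked for at least 3 arrays in a channel. These arrays included replicate 6, where the probe had its lowest levels and nearly every spot was marked as above background. Its log2 level was 6.22, 6.46 and 7.42 with VIP and 6.23, 6.49 and 7.21 in untreated cells, and the log2 ratio was 0.04 ± 0.042.

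**Figure D1:**
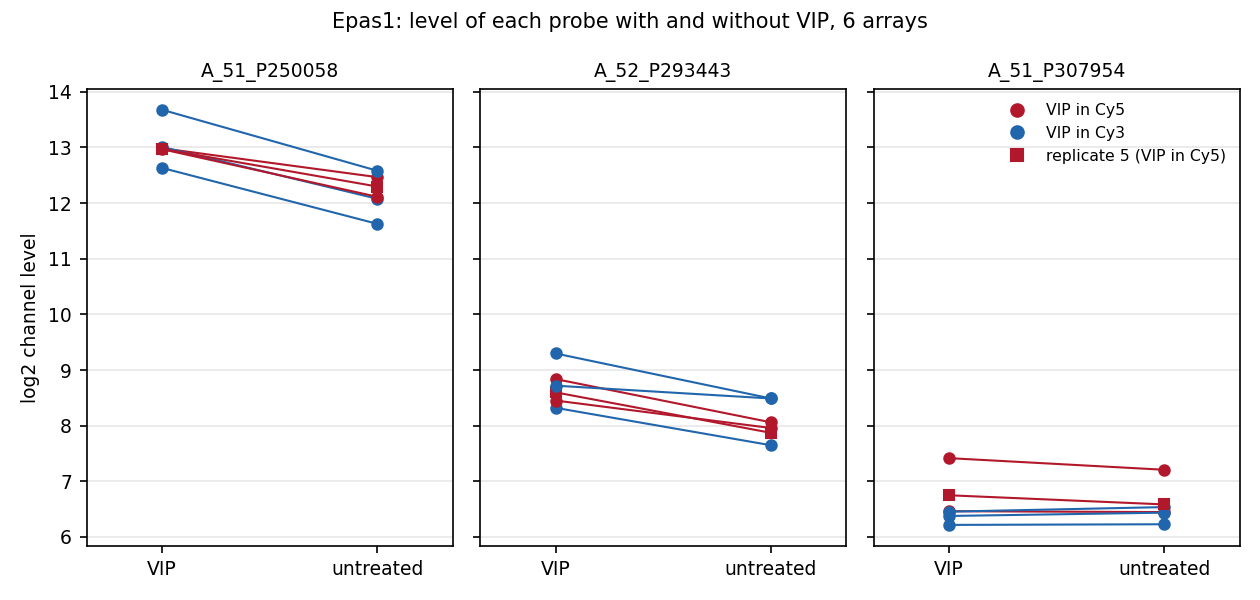
Log2 channel level (vertical axis, after normalization) of the 3 Epas1 probes with VIP and in untreated cells; each line joins the channels of 1 array, coloured by dye orientation, with replicate 5 as squares. At A_51_P250058 the VIP values lie between 12.63 and 13.68 and all untreated values at or below 12.58, while A_51_P307954 shows no separation.

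The alpha subunit Hif1a gave a smaller and less even ratio than Epas1. Its single probe, A_51_P387608 (chr12:75047269-75047329, plus strand, mm9), had a log2 level of 13.17, 13.95 and 14.61 with VIP and 13.18, 13.82 and 14.04 in untreated cells. The groups overlapped over most of their range. The mean log2 ratio was 0.23 ± 0.060 (SE, n = 6), with VIP higher on 4 of 6 arrays as measured and on 6 of 6 once the fitted dye effect was removed. Without replicate 5 the ratio was 0.23 ± 0.065.

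Hif3a, whose products include inhibitors of the other alpha subunits, showed no separation at either probe. The brighter probe had a log2 level of 7.25, 7.42 and 7.71 with VIP and 7.20, 7.40 and 7.80 in untreated cells, with a log2 ratio of -0.00049 ± 0.050 and VIP higher on 3 of 6 arrays. The dimmer one exceeded background clearly on 2 of 6 arrays per group, did not pass the filter and had a log2 ratio of 0.03 ± 0.042.

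Arnt, the common partner of the alpha subunits, was measured by 4 probes, and their ratios ranged from 0.08 to 0.22 on the log2 scale. The brightest, A_52_P324866, had a log2 level of 8.76, 9.35 and 9.67 with VIP and 8.73, 9.26 and 9.86 in untreated cells, and a log2 ratio of 0.08 ± 0.064 (SE, n = 6) with VIP higher on 4 of 6 arrays. A_51_P494196 had a log2 level of 8.87, 9.15 and 9.27 with VIP and 8.61, 8.87 and 9.20 in untreated cells. VIP was higher there on 6 of 6 arrays, with a log2 ratio of 0.22 ± 0.044. The third, A_52_P577150, was also higher on 6 of 6 arrays, at 0.10 ± 0.040. The dimmest, A_52_P84015, had a log2 ratio of 0.11 ± 0.082, which was 0.22 ± 0.054 without replicate 5, where it stood at -0.43. The brightest probe went the other way, from 0.08 with all arrays to 0.04 ± 0.064 without replicate 5. Arnt2, a paralog of Arnt known mainly from neurons, exceeded background clearly on 4 of 6 arrays per group. Replicate 5 was among these arrays in both groups, but the Arnt2 spot there bore an outlier mark and was left out. Fewer of the arrays behind the ratio were therefore clearly above background. The log2 level of Arnt2 was 6.70, 6.74 and 7.19 with VIP and 6.59, 6.64 and 7.12 in untreated cells, with a log2 ratio of 0.03 ± 0.050 (SE, n = 5).

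Among the prolyl hydroxylases, Egln3 had the largest ratio. Its probe A_52_P387009 (chr12:55280953-55281012, minus strand, mm9) had a log2 level of 9.06, 9.39 and 9.96 with VIP and 8.48, 9.40 and 9.80 in untreated cells. The medians were close and the groups overlapped, whereas within arrays VIP was higher on 5 of 6. The mean log2 ratio was 0.30 ± 0.044 (SE, n = 6), or 1.23-fold, and all 6 ratios were positive once the dye effect was removed. Without replicate 5 it was 0.33 ± 0.045. Egln1, the main oxygen sensor of the family, had log2 ratios of -0.02 ± 0.048 and -0.03 ± 0.043 at its 2 probes, each with VIP higher on 3 of 6 arrays. The brighter Egln1 probe had a log2 level of 9.32, 10.14 and 10.54 with VIP and 9.40, 10.05 and 10.63 in untreated cells, and its ratio was 0.0075 without replicate 5. Egln2 had a log2 level of 10.83, 11.41 and 11.65 with VIP and 10.85, 11.31 and 11.55 in untreated cells, with a log2 ratio of 0.05 ± 0.047 and VIP higher on 3 of 6 arrays. The ratios of Egln1 and Egln2 were thus close to their standard errors or below them.

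Hif1an, the asparaginyl hydroxylase, gave probes of opposite sign. The brightest, A_51_P521171, had a log2 level of 9.35, 10.08 and 10.28 with VIP and 9.51, 10.08 and 10.55 in untreated cells, a log2 ratio of -0.09 ± 0.044 (SE, n = 6) and VIP lower on 5 of 6 arrays. The other probes had log2 ratios of 0.05 ± 0.046 and 0.07 ± 0.044, with VIP higher on 4 of 6 and 5 of 6 arrays. No direction for Hif1an can be given from these probes. Vhl, read by its Vhlh probe A_52_P670070, had a log2 level of 9.20, 9.49 and 10.22 with VIP and 9.27, 9.40 and 10.26 in untreated cells. Its log2 ratio was 0.04 ± 0.051, with VIP higher on 3 of 6 arrays.

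**Figure D2:**
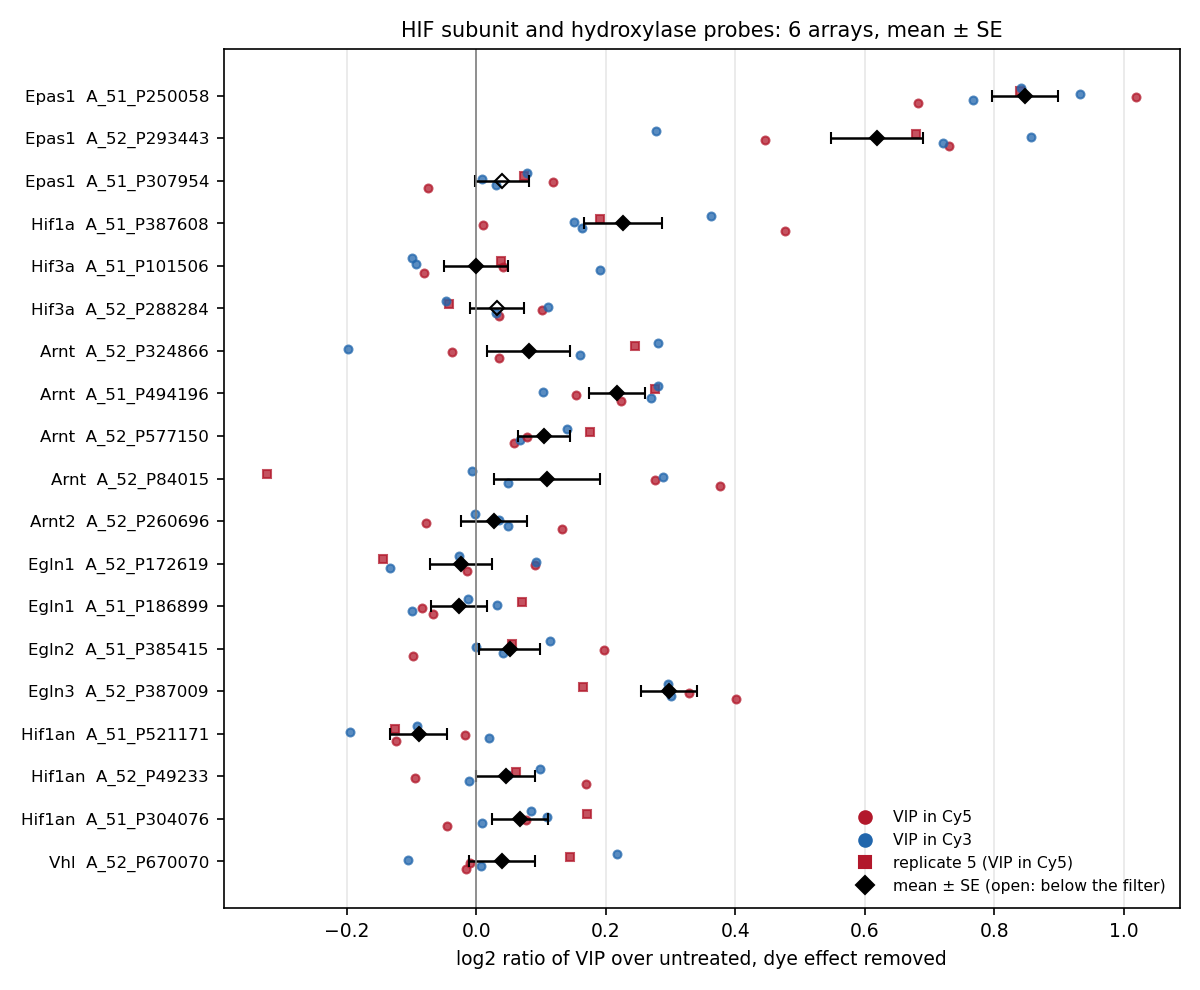
Log2 ratio of VIP over untreated with the fitted dye effect removed (horizontal axis) for each of 19 probes; small points are arrays, coloured by dye orientation with replicate 5 as squares, and diamonds with bars are the mean ± SE, open where the probe did not pass the filter. The 2 brighter Epas1 probes lie at 0.85 and 0.62, Egln3 at 0.30 and Hif1a at 0.23, while Egln1, Egln2, Hif3a, Arnt2 and Vhl lie within 0.06 of 0.

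Of the 19 probes, 17 passed the filter, none was saturated on any array, and all 10 genes entered the fit across genes, each by its brightest probe. With limma and a Benjamini-Hochberg adjusted p under 0.05, 483 of 22890 genes (2.11%) were called, 378 (1.65%) higher and 105 (0.459%) lower with VIP. Of the 10 genes, 2 were called higher, Epas1 and Egln3, and 0 were called lower, with 0 lower at an unadjusted p under 0.05 as well. In the fit over single probes, 722 of 33262 (2.17%) were called, among them 4 probes of 3 of these genes: the 2 brighter Epas1 probes, Egln3 and Arnt A_51_P494196. Since the genes were chosen on this contrast, nothing is read from these counts. The median log2 ratio over the 10 genes was 0.046, with 7 of them (70%) above 0, beside a median of 0.0023 and 51.4% above 0 over all genes tested.

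The ratios of Hif1a and Egln3 differed between dye orientations by more than their VIP ratio. The mean for VIP in Cy3 exceeded that for VIP in Cy5 by 0.58 for Egln3 and 0.40 for Hif1a, beside VIP ratios of 0.30 and 0.23. For Egln3 the log2 ratio was between -0.12 and 0.11 on the 3 arrays with VIP in Cy5 and between 0.58 and 0.59 on the 3 with VIP in Cy3. For Hif1a these ranges were -0.19 to 0.27 and 0.35 to 0.56. Epas1 A_51_P250058 was also higher with VIP in Cy3, at 0.93 to 1.10 against 0.52 to 0.86, but lay above 0 in both orientations. The fitted dye effect, which is that difference divided between both orientations and given as log2 of Cy5 over Cy3, was -0.29 for Egln3, -0.20 for Hif1a and -0.16 for Epas1. The array with VIP in Cy5 had the same position on every slide, so dye and slide position cannot be told apart.

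Each of the 3 slides held 1 array of each orientation, so the mean of a slide is free of a constant dye effect. Per slide the mean log2 ratio of Epas1 was 0.73, 0.98 and 0.84 at the brightest probe and 0.72, 0.65 and 0.48 at A_52_P293443. Egln3 stood at 0.35, 0.31 and 0.23, a narrow range given how far its single arrays lay apart. Hif1a stood at 0.32, 0.08 and 0.28.

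**Figure D3:**
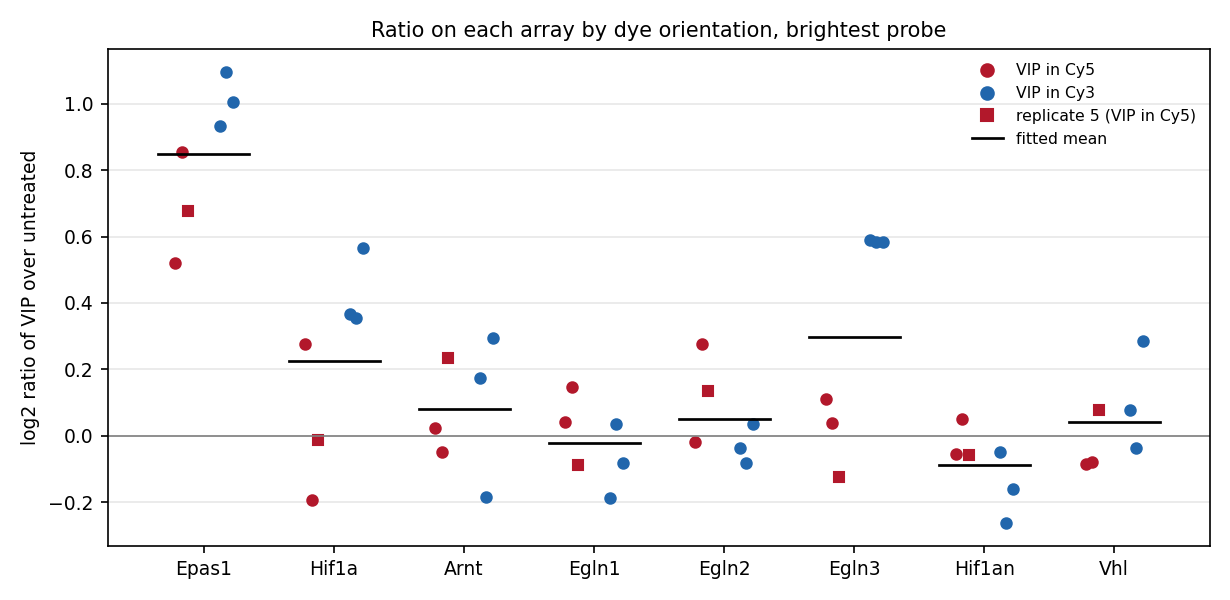
Log2 ratio of VIP over untreated (vertical axis) on each array at the brightest probe of 8 genes, by dye orientation, with the fitted mean as a line and replicate 5 as squares. Egln3 lies at 0.58 to 0.59 with VIP in Cy3 and at -0.12 to 0.11 with VIP in Cy5, and all 6 Epas1 values lie above 0.5.

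Promoter windows of RefSeq (GRCm38.p6, from 250 bases before to 50 after the annotated start) were found for 9 of the 10 genes, all but Epas1, as 10 windows. They were searched on both strands for the cAMP response element TGACGTCA, its shorter form TGACG, which overlaps it, and ACGTG, the core of the hypoxia response element. Over 32851 windows of the same length, 1.79% held TGACGTCA, 20.8% TGACG and 19.6% ACGTG. The windows of Hif1a, Egln3 and Arnt are shown because these genes had the largest ratios after Epas1, with matches in capitals.
Hif1a (chr12:73907617-73907916, plus strand): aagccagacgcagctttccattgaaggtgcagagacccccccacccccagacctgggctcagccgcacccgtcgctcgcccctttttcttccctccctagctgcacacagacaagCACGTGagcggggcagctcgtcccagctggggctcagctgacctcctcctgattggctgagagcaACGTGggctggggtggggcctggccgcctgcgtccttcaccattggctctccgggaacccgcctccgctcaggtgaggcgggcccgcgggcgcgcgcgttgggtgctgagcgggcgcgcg
Egln3 (chr12:54203825-54204124, minus strand): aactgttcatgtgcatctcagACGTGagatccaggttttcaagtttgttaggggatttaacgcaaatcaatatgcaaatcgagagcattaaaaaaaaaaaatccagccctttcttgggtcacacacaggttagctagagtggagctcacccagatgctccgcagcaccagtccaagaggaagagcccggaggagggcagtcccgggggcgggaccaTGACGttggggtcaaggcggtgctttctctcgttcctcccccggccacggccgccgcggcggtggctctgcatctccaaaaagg
Arnt (chr3:95434140-95434439, plus strand): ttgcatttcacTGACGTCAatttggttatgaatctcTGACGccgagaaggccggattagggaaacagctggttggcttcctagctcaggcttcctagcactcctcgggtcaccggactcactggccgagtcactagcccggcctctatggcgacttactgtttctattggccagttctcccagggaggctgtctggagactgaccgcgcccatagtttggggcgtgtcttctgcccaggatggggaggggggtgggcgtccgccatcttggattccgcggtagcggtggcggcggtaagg
Hif1a held 3 matches to ACGTG, counting both strands of a palindrome. Egln3 held 1 match to ACGTG and 1 to TGACG. Arnt held 1 match to TGACGTCA and 3 to TGACG, of which the full element accounts for all but the rightmost. Among genes with ratios near 0, a window of Egln2 held 3 matches to ACGTG and its other window 1 to TGACG, and Egln1 held 1 to ACGTG. The windows of Hif3a, Arnt2, Hif1an and Vhl held none of the 3. A match is a run of letters and not a measured binding site.

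The genes whose ratios were nearest to those of Epas1 were found by the root mean square difference of the 6 dye-adjusted log2 ratios, among 14036 genes with a symbol and a value on all arrays. This measure favours genes with a mean ratio like that of Epas1 and does not show that they vary together over the arrays. On replicate 5, for example, Ccr8 had its lowest value, 0.52, while Epas1 stood at 0.84. Bend4, which encodes a BEN domain protein, was nearest at 0.124. Gpat3, an acyltransferase of glycerolipid synthesis, followed at 0.166, and the chemokine receptor gene Ccr8 at 0.189. Over the arrays the adjusted log2 ratio of Epas1 ran from 0.68 to 1.02, beside 0.71 to 1.00 for Bend4, 0.58 to 0.81 for Gpat3 and 0.52 to 0.97 for Ccr8.

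Lists of HIF cofactors and stability regulators, HIF targets, other bHLH-PAS factors, and hydroxylases that act on other substrates held 91 further genes. They are called list genes below, since some lie outside the HIF pathway. Of the 91, 87 were tested. With VIP, 8 rose (9.20%, beside 1.65% of all genes) and 1 fell (1.15%, beside 0.459%, limma, adjusted p under 0.05), and 78 did not pass the test. The median log2 ratio of the 87 was -0.0044, beside 0.0023 over all genes. The lists were written with earlier results of these data known, so nothing is read from these shares. Without replicate 5, where 3.62% of 22652 genes were called, 7 rose and 2 fell, and 8 of the 9 called with all arrays were among them. The count was 5 without replicate 1 and 4 without replicate 3. Arrays counted as higher or lower for these genes are after removal of the dye effect.

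Among 16 cofactors, ubiquitin ligase partners and stability regulators, 1 rose and 15 did not pass the test. The median of the 16 was 0.037. The one that rose was Cited4, a CBP and p300 binding protein, at a log2 ratio of 0.28 ± 0.054 (higher on 6 of 6 arrays, limma adjusted p = 0.024), a call kept in 7 of 17 alternative settings. The coactivator genes Crebbp (CBP) and Ep300 (p300) had log2 ratios of -0.19 ± 0.064 and -0.12 ± 0.053 (limma adjusted p = 0.22 and 0.38). Cited2, which competes with HIF-1 alpha for the same coactivators, was at 0.16 ± 0.061 (adjusted p = 0.29). Cul2, the scaffold of the VHL ligase, was at 0.14 ± 0.060 (adjusted p = 0.38). Rbx1, named after its values were seen, did not pass the test at its brightest probe. In the fit over single probes 1 of its 3 probes was called lower, with ratios from -0.23 to -0.02.

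Among 20 glycolytic targets of HIF, 2 rose and 18 did not pass the test. The median of the 20 was -0.016. Among the 18 was Pkm, named after its values were seen. In the fit over single probes 1 of its 3 probes was called higher, with ratios from 0.05 to 0.26. Pfkfb4, a regulator of phosphofructokinase, was higher on 6 of 6 arrays at 0.32 ± 0.042 (limma adjusted p = 0.0031). Slc16a3, a lactate exporter, was at 0.21 ± 0.044 (adjusted p = 0.035), a call kept in 4 of 17 settings and lost without any single replicate. The glucose transporter gene Slc2a1 was at -0.14 ± 0.052 (n = 5, limma adjusted p = 0.30), Ldha, lactate dehydrogenase, at -0.09 ± 0.061 (adjusted p = 0.61) and Pdk1, the kinase that restrains pyruvate entry into mitochondria, at 0.12 ± 0.056 (adjusted p = 0.40).

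Among 29 other HIF targets, 5 rose, 1 fell and 23 did not pass the test. The median of the 29 was 0.035. Adm, which encodes the vasoactive peptide adrenomedullin, was at 0.40 ± 0.044 (1.32-fold, 6 of 6 arrays, limma adjusted p = 0.0011). Mxi1, a MYC antagonist, was at 0.33 ± 0.039 (adjusted p = 0.0017) and P4ha2, a collagen prolyl hydroxylase, at 0.31 ± 0.043 (adjusted p = 0.0039), both on 6 of 6 arrays. Cxcr4, the receptor of the chemokine CXCL12, was at 0.50 ± 0.065 (1.41-fold, 5 of 5 arrays, limma adjusted p = 0.0041), but was not called without replicate 3, where it stood at 0.42. The last gene that rose, Bhlhe40 (0.36), and the one that fell, Ankrd37 (-0.22 ± 0.045, lower on 5 of 5 arrays, limma adjusted p = 0.039), were named after their values were seen. Vegfa, the angiogenic factor, was at 0.06 ± 0.053 (n = 5, limma adjusted p = 0.75), and Ddit4, an inhibitor of mTORC1, at 0.27 ± 0.086 (adjusted p = 0.19).

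None of 8 targets attributed mainly to HIF-2 alpha, the product of Epas1, was called by limma, and 1 had an unadjusted p under 0.05. Their median log2 ratio was -0.034, with a range of -0.15 to 0.07. Only 3 of the 8 (Ccnd1, Slc11a2 and Arg1) were well above background on all arrays in both groups, which limits what the ratios of the other 5 can show. The smallest p belonged to the iron transporter gene Slc11a2 at -0.15 ± 0.044 (lower on 6 of 6 arrays, limma adjusted p = 0.14) and to Arg1, arginase, at -0.10 ± 0.047 (adjusted p = 0.39). The 3 Slc11a2 probes ran from -0.15 to 0.12 and differed in sign. Epo, erythropoietin, was at -0.0088 ± 0.044. Among 8 tested bHLH-PAS factors other than HIF none was called by limma and 1 had an unadjusted p under 0.05. Clock, the circadian factor, was at -0.12 ± 0.046 (limma adjusted p = 0.27), and Ahr, the aryl hydrocarbon receptor that also pairs with ARNT, at 0.10 ± 0.064 (adjusted p = 0.56). Of 8 tested prolyl and lysyl hydroxylases that act on other substrates, P4ha2 rose, as given above, and 7 did not pass the test.

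**Figure D4:**
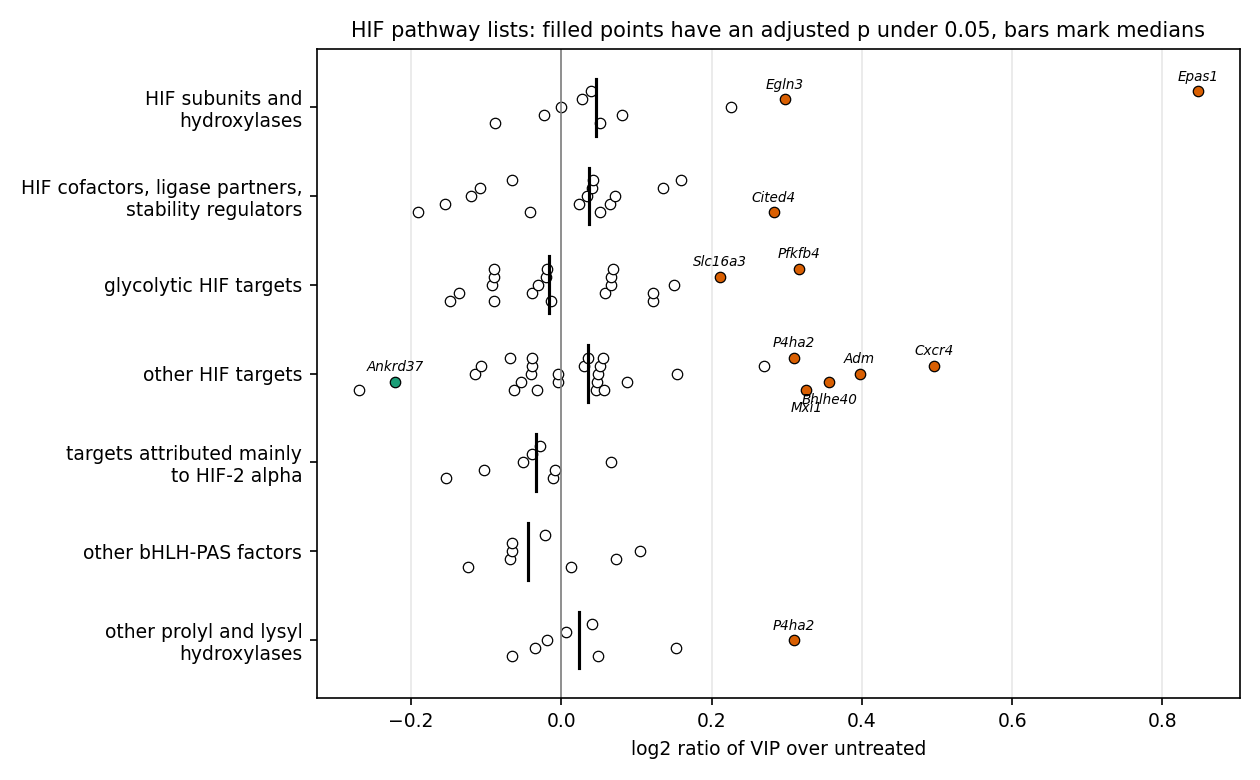
Log2 ratio of VIP over untreated (horizontal axis) for each tested gene of the HIF subunits and hydroxylases and of 6 other lists; filled points are named and had an adjusted p under 0.05, bars are list medians. In the top row Epas1 lies at 0.85, apart from Egln3 at 0.30, and the 8 targets attributed mainly to HIF-2 alpha all lie between -0.15 and 0.07, of which 3 were well above background throughout.

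Epas1 is known to be expressed in endothelium and in macrophages, so their markers are given beside it. The summed linear level of the 7 endothelial genes with a value on every array, which leaves out Esam, was between 1219 and 1693 with VIP and between 1205 and 1679 in untreated cells, higher with VIP on 4 of 6 arrays. None of 8 tested endothelial genes was called by limma, 0 had an unadjusted p under 0.05, and their median log2 ratio was -0.0075. Only 4 of these 8 were well above background on all arrays in both groups, which limits what the ratios and the sum can show. Pecam1 was at 0.04 ± 0.040. Cdh5, the cadherin that defines endothelium, was well above background on 2 of 6 arrays with VIP and 3 of 6 in untreated cells. The summed level of the 6 monocyte and macrophage genes with a value on every array, which leaves out Cd14 and Csf1r, was between 9767 and 20191 with VIP and between 7922 and 19687 in untreated cells, higher with VIP on 5 of 6 arrays. Of 8 tested genes of that list, Cd14, a lipopolysaccharide co-receptor, was called higher at 0.57 ± 0.068 (n = 5, limma adjusted p = 0.0023), and 7 did not pass the test, with a list median of 0.048. The part of these cells in the Epas1 ratio was not tested. Of the 6 CD4 T cell genes 0 were called by limma and 1 had an unadjusted p under 0.05, with a median of 0.058, Cd4 at 0.05 ± 0.043 and Cd3e at 0.06 ± 0.044. That 1 was Thy1, a T cell surface glycoprotein gene named after its values were seen, at 0.19 ± 0.067 (6 of 6 arrays, limma adjusted p = 0.25). Its other probe was at 0.42 and was called in the fit over single probes. The sum over the 6 CD4 T cell genes was higher with VIP on 6 of 6 arrays, between 121953 and 349687 with VIP and between 119071 and 285094 in untreated cells. That sum mostly follows Thy1, Lck and Cd3d, with median log2 levels of 16.11, 15.02 and 14.80 with VIP. Cd4 at 8.09 and Cd3e at 7.88 hardly enter it, so it does not measure a share of CD4 T cells. B cell genes summed to between 1951 and 3752 with VIP and between 1815 and 4192 in untreated cells. Limma called 0 of 5 B cell genes, and likewise 0 of 4 dendritic, 4 stromal, 2 NK and 2 erythroid cell genes and 0 of 5 sex-linked genes, with 0 at an unadjusted p under 0.05 in each of these lists. Only 3 of 5 B cell, 2 of 4 dendritic, 2 of 4 stromal and 0 of 2 NK genes were well above background throughout. The same held for 2 of 2 erythroid and 3 of 5 sex-linked genes. This limits what the ratios of the dimmer genes can show. The sex-linked genes were not called although replicate 5 stood far apart in Xist and Ddx3y, which widened their standard errors. Ddx3y was at 0.77 ± 0.40 and Xist at -0.47 ± 0.37 (SE, n = 6 arrays). The lack of a call there does not show that sex-linked transcripts were balanced.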

How the data were processed

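Per the file headers, Agilent Feature Extraction 9.5.1.1 quantified the 6 arrays, and the deposited files give intensity, local background and quality marks per spot and channel, with probe positions on mm9. An alternative used the log10 values the authors deposited as a series table, which equal the scanner's log10 ratio turned to VIP over untreated and have a column median of 0 on 5 arrays.

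Mean intensity was corrected with normexp (offset 50) and normalized by loess within arrays in limma 3.58.1 (R 4.3.3), with control spots and spots with an outlier mark at weight 0. Marked spots were left out, and spots of a probe were averaged. A probe passed the filter when well above background on at least 3 arrays in either group's channel, and a gene was read by its brightest such probe. The log2 ratio within an array, which pairs the RNAs of 1 replicate per the labels, was fitted as a dye effect plus a VIP effect with eBayes, and p-values were adjusted over all genes tested. Channel levels were scaled between arrays by quantiles of average intensity and are compared between groups within a probe or a fixed sum of probes. The code of the fit was checked on simulated ratios with independent noise, which held no aberrant array and no normalization step. That check does not show how well the fit performs on these arrays. Spots were named through RefSeq accessions (26788), current symbols (6252) or synonyms (1810), and 8529 kept the name in the file.

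The genes, lists and rule for named genes were chosen with earlier results of these data known. The rule took every probe of the 10 genes, in each list at most the 4 called genes with the smallest p (where none was called, the 2 smallest), the 3 genes with ratios nearest to those of Epas1 and a set of textbook genes. Alternatives varied background, normalization, source of ratios, filter, outlier marks, probe rule, dye term, slide, pairing and replicates.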

Additional observations from a re-analysis of the deposited data

Results flagged for a closer look

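Of 87 sets of array values tested for a value far from the rest (Dixon's test, which by chance marks about 1 in 20), 14 had one. On replicate 5 these were the log2 ratios of Xist (-3.27) and Ddx3y (4.12), the spike-in slope (0.194) and the share of spots with an outlier mark (13.5%). On replicate 6 they were the VIP levels of Arnt A_52_P577150 (7.25), Arnt2 (7.19, the highest of 5) and the Hif1an probes A_52_P49233 (8.57) and A_51_P304076 (6.95), and the untreated levels of Arnt A_52_P577150 (7.14), Hif1an A_52_P49233 (8.41) and A_51_P304076 (6.85), all on the log2 scale. On replicate 4 they were the VIP level of Epas1 A_51_P250058 (13.68) and the untreated level of Vhl (10.26), and on replicate 3 the untreated level of Epas1 A_51_P307954 (7.21). None of the dye-adjusted ratios of the HIF genes was among them.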

How the results depend on the processing

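The Epas1 log2 ratio stayed between 0.73 and 0.93 over 17 alternatives, and between 0.80 and 0.89 with each replicate left out in turn; it was called in 16, the exception being the fit with no replicate block. Egln3 was positive in 17 (0.27 to 0.35) and called in 12, and not with normexp offset 0, median centring, the authors' series table, no dye term or no replicate block. Both genes were chosen on this contrast, so these calls describe that choice as well. Hif1a was positive in 17 (0.16 to 0.31). Hif1an was 0.0079 as the mean of its probes, and Arnt2 was 0.11 with offset 0. Leaving out each replicate in turn gave 215 to 821 genes called (215, 307, 227, 292, 821 and 273 without replicates 1 to 6) and 4 to 9 list genes. Without replicate 5, 571 of the genes called were higher and 250 lower.

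The number of genes called, 483 (78.3% higher), was 95 with offset 0 (89.5% higher), 118 with median centring (95.8%), 12 with the authors' series table (100%) and 227 without the dye term. The 9 list genes called were 2, 1 and 0 with offset 0, median centring and the authors' table, where 16, 14 and 17 had an unadjusted p under 0.05. With no replicate block, that is with the 12 channels fitted without the pairing within arrays, 1 gene was called. Of the list genes 0 were called and 4 had an unadjusted p under 0.05. The cause of these changes was not tested. Under median centring the median of all genes was 0.016. For probes such as Epas1 A_51_P307954, signal over background limits what can be said.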
